A study of Homo sapiens with 34 samples.

Results

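The comparison covered 16 of the 34 RNA sequencing libraries of the series, the 8 collected at 48 h, after day 2 in DE(b) medium, and the 8 collected at 48 h after day 2 in PM medium. They were chosen by their labels alone. Each medium followed 4 day 1 treatments, with 2 replicates of each combination, so that every gene has a DE(b) minus PM difference after each kind of primitive streak (PS) cell. All libraries came from wild-type ESI017 cells, a human embryonic stem cell line. On day 1 the cells received DE(a) medium (100 ng/ml activin and 2 µM CHIR99021), anterior PS medium (APS, 4 µM CHIR99021 with 30 ng/ml activin and 20 ng/ml bFGF), mid PS medium (MPS, the activin and bFGF of APS with 40 ng/ml BMP4 and 6 µM CHIR99021) or posterior PS medium (PPS, the same as MPS but lacking activin). DE(b) medium, meant for definitive endoderm and given on day 2, held 100 ng/ml activin, and PM medium, meant for paraxial mesoderm, held 1 µM A-8301 and 20 ng/ml bFGF. Both held 250 nM LDN-193189, an inhibitor of BMP receptors, so BMP inhibition was shared and the media differed in activin, in the receptor inhibitor A-8301 and in bFGF at the same time. The labels and methods list no CHIR99021 in PM medium, while a supplementary legend of the study names it and its main text describes WNT signaling as active in PM on day 2, so a difference in WNT activation between the media cannot be told apart from the other differences. The question was which genes moved in the same direction in DE(b) relative to PM whatever the cells had received on day 1.

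Activin binds ACVR2 and ACVR1B receptors, Nodal does so with the co-receptor TDGF1, and the receptors phosphorylate SMAD2 and SMAD3, which enter the nucleus with SMAD4 and act with partners such as FOXH1. The pathway switches on its own ligand NODAL and its own secreted inhibitors, LEFTY1, LEFTY2 and CER1. In the gastrulating embryo a high level of this signal marks cells of the anterior PS that form endoderm, with the factors EOMES, SOX17, FOXA2 and GATA6. A-8301 blocks the receptors of this branch. Paraxial mesoderm arises from PS cells under WNT and FGF signals, passes through a presomitic stage with TBX6, MSGN1 and the segmentation clock gene HES7, and takes its position along the body axis from CDX and HOX genes.

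Promoters are printed for the genes that separated the media most clearly after every day 1 treatment, the first 3 higher in DE(b) and the first 3 higher in PM that have a promoter in the RefSeq table used here. They are the 250 bases before the RefSeq start of the gene in GRCh38.p14, 5′ to 3′ on the strand of the gene, with matches to 5 short motifs in capitals. LEFTY2 and EDAR, which ranked among these genes, have no entry. The RefSeq start of ALDH1A2 lies inside the longer span that GENCODE gives the gene.
CER1 promoter, chr9:14722734-14722983, minus strand: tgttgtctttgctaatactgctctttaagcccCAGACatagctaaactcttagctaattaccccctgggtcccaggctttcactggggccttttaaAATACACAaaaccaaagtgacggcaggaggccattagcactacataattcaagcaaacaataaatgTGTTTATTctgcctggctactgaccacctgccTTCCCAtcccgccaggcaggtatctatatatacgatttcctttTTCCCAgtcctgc
CYP26A1 promoter, chr10:93073225-93073474, plus strand: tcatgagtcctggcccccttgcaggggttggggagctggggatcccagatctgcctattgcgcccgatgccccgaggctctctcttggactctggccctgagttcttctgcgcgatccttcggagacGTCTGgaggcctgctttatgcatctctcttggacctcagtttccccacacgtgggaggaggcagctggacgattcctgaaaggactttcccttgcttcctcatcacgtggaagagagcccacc
ERBB4 promoter, chr2:212538803-212539052, minus strand: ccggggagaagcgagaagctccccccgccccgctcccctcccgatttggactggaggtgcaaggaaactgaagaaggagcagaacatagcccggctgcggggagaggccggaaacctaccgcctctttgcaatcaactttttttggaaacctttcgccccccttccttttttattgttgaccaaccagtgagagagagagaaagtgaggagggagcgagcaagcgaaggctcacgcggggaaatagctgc
HOXB1 promoter, chr17:48531012-48531261, minus strand: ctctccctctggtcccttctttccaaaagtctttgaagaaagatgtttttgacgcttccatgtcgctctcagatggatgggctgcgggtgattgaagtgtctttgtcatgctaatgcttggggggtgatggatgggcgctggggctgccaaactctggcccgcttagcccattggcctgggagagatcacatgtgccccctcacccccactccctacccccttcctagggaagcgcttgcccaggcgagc
ALDH1A2 promoter, chr15:58065712-58065961, minus strand: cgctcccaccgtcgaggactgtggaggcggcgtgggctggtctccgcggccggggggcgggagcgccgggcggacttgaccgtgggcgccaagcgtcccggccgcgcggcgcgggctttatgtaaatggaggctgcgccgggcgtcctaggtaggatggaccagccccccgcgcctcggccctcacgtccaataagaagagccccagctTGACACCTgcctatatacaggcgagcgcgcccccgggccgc
TTC29 promoter, chr4:146945865-146946114, minus strand: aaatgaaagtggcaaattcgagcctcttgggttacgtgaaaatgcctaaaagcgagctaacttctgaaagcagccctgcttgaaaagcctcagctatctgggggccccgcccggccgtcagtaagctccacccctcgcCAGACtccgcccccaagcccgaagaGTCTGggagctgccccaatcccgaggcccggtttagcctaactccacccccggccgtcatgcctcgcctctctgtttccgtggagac
The motifs were searched on both strands and are the FOXH1 motif TGTNNATT, the SMAD motif CAGAC, the T-box motif AGGTGTNA, the TCF/LEF motifs CTTTGAT and CTTTGTT, and the RBPJ motif TGGGAA. None of the capitals shown overlap another motif. The CER1 promoter held 2 matches to the FOXH1 motif, at bases 88 to 81 and 154 to 147 before the start, the second of them on the opposite strand, and 1 match to the SMAD motif at bases 218 to 214. It also held 2 matches to the RBPJ motif. One SMAD motif lay in the CYP26A1 promoter, 1 T-box motif at bases 41 to 34 in the ALDH1A2 promoter and 2 SMAD motifs in the TTC29 promoter, and the windows of ERBB4 and HOXB1 held no match. Of 27305 promoters of this length, 9.9% held the FOXH1 motif, 37.8% the SMAD motif, 2.2% the T-box motif, 6.66% a TCF/LEF motif and 21.1% the RBPJ motif. Among the 11781 promoters of genes tested these shares were 5.14%, 36.1%, 1.66%, 4.08% and 19.3%. The matches describe these letters and show no binding.

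Levels are given as CPM, estimated counts per 1000000 of the library total, and are normalized neither for gene length nor for composition, so levels of different genes are not compared. Library totals ranged from 15522780 to 20808544 estimated counts in DE(b) and from 15858749 to 23439799 in PM, and a gene without a count in a library could have been present at up to 0.128 to 0.193 CPM, counting error only. The sum of 5 definitive endoderm markers (SOX17, FOXA2, CXCR4, CER1 and HHEX) ranged from 3459 to 6446 CPM in DE(b) and from 234 to 335 CPM in PM, most of it CER1 in DE(b) and CXCR4 in PM, and that of 6 presomitic markers (TBX6, MSGN1, DLL1, DLL3, CDX2 and HES7) from 7.19 to 475 CPM in DE(b) and from 1225 to 1922 CPM in PM. CXCR4 went against its list, with more RNA in PM. One library stood apart. DE(a)-PM replicate 1 held 72.7 CPM of SOX17 and 24.4 CPM of EOMES, against 3.75 and 2.64 CPM in replicate 2 of the same condition and at most 2.44 and 6.93 CPM in the 6 other PM libraries. Genes in which it lay apart from the other PM libraries are given with and without it. In bulk RNA, fewer cells of a type and less RNA per cell cannot be told apart.

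Of 16884 genes tested, 7087 differed between the media over all day 1 treatments, or 42.0% of the genes tested, by the quasi-likelihood test of edgeR with the day 1 treatment as a block and Benjamini-Hochberg adjustment (adjusted p under 0.05, called in the following). DE(b) had the higher level for 3572 of them (21.2%) and PM for 3515 (20.8%). Replicate 1 and replicate 2 libraries form 2 separate tables and deviated together by table. Within the libraries of replicate 1 alone 3570 genes were called and within those of replicate 2 alone 3270, of which 3439 and 3205 were among the 7087 with the same direction and 0 with the opposite one. The difference was in favour of DE(b) after each of the 4 day 1 treatments for 4014 genes (23.8%) and in favour of PM for 4008 (23.7%). Called genes with such a common direction numbered 3164 (18.7%) for DE(b) and 3050 (18.1%) for PM. For 920 genes (5.45%) all 8 DE(b) libraries lay above all 8 PM libraries, and for 1165 genes (6.90%) all 8 PM libraries lay above. Counts of list members given below are to be read beside these shares of all genes tested.

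**Figure D1:**
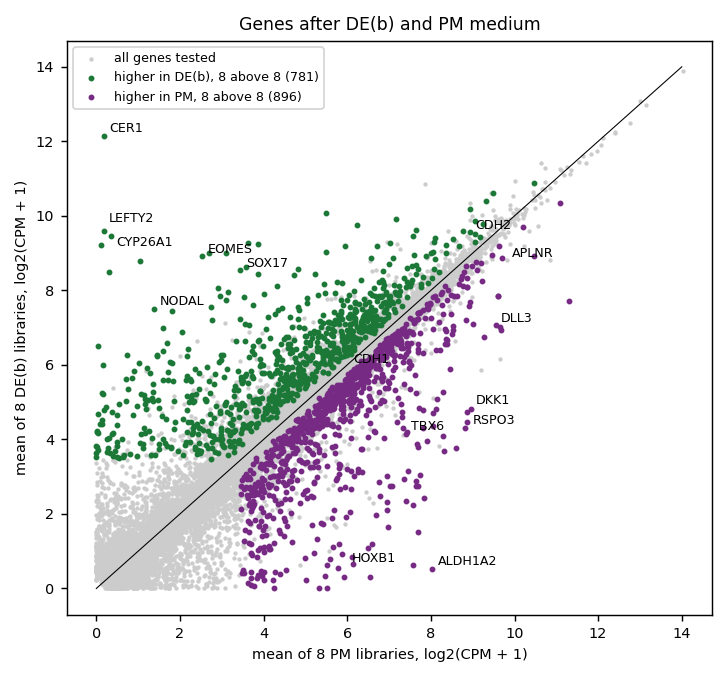
Mean of the 8 PM libraries (horizontal axis) against the mean of the 8 DE(b) libraries (vertical axis), both as log2(CPM + 1), for 16884 genes tested (grey). Green and purple points are the 781 and 896 genes that were called, had the same sign after all 4 day 1 treatments, did not overlap between media and averaged at least 10 CPM in the higher medium, and the line marks equal levels.

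When a mean level of 10 CPM or more in the higher medium was added to these conditions, 781 genes (4.63%) were higher in DE(b) and 896 (5.31%) higher in PM. The gap was not equal after every day 1 treatment. Among the 781 genes the median difference of mean log2(CPM + 1) was 1.15, 1.32, 1.31 and 0.98 for cells of DE(a), APS, MPS and PPS, and among the 896 genes it was -0.81, -0.90, -0.84 and -0.72. The smallest of the 4 differences came after PPS for 393 of the 781 genes and after DE(a) for 277, and after PPS for 465 and DE(a) for 247 of the 896, so APS and MPS seldom gave the smallest gap. Over all genes tested PPS gave it for 5560 and DE(a) for 4462 of 16884. The differences after DE(a) include DE(a)-PM replicate 1, the library that stood apart, and were not computed without it. Relative to the 24 h libraries from which day 2 started, 618 of the 781 (79.1%) were called above 24 h in DE(b), where 26.3% of all genes tested were, and 514 (65.8%) were called below 24 h in PM, where 23.8% of all genes were. Of the 896, 585 (65.3%) were called above 24 h in PM and 520 (58%) below 24 h in DE(b). Since the sets were chosen by the gap between the media, such a gene has to lie above 24 h in the higher medium, below it in the lower one, or both, and nothing is read from these shares against those of all genes. These 2 comparisons share the 24 h libraries. Over all 17469 genes tested in them, 50.5% were called in DE(b), 25.4% above and 25.1% below 24 h, and 47.6% in PM, 23.5% above and 24.1% below.

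**Figure D2:**
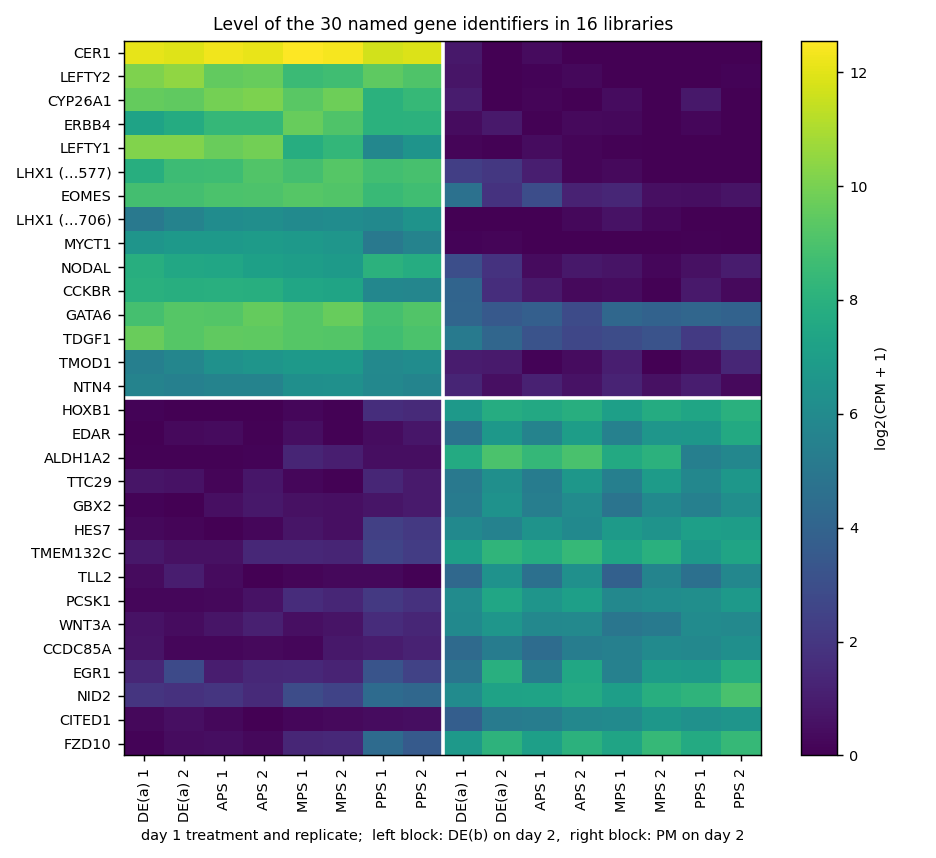
Level of 30 gene identifiers (rows) in the 16 libraries (columns) as log2(CPM + 1), with the 15 higher in DE(b) above and the 15 higher in PM below, each ranked by the smallest of the 4 differences between media. LHX1 has 2 identifiers, told apart by their last 3 digits, and the DE(a) 1 column of the PM block is the library that stood apart, with the highest EOMES, NODAL, CCKBR and TDGF1 levels of the PM libraries.

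The 15 identifiers with the largest smallest difference in favour of DE(b) were led by the secreted inhibitors of Nodal. CER1, which binds Nodal, BMP and WNT ligands outside the cell, ranged over 3329 to 6006 CPM (median 4433) in DE(b) and had at most 0.752 CPM in PM, where 6 of 8 libraries held no read. It was high after all 4 day 1 treatments, with 3593 ± 373 CPM (SD, n = 2) after PPS and 5674 ± 468 CPM after MPS. The difference of mean log2(CPM + 1) averaged 11.97 and was at least 11.59 after each day 1 treatment (edgeR adjusted p = 1.32e-10). LEFTY2 followed with 371 to 1400 CPM (median 726) in DE(b) against at most 0.641 CPM in PM (edgeR adjusted p = 1.2e-11). LEFTY1, a close paralog whose reads the authors' quantification may share with LEFTY2, spanned 55.8 to 1152 CPM in DE(b) and at most 0.327 CPM in PM (edgeR adjusted p = 7.91e-13). In contrast to CER1, LEFTY1 was graded by day 1, from 1144 ± 10.9 CPM for DE(a) cells to 72.3 ± 23.4 CPM after PPS (SD, n = 2).

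NODAL itself and its co-receptor belonged to the same set. NODAL had 114 to 269.9 CPM (median 176) in DE(b) and 0.167 to 6.97 CPM (median 0.668) in PM. The highest PM value came from the library that stood apart, and the log2 fold change was 7.32 ± 0.46 (SE), edgeR adjusted p = 2.39e-08, and 7.85 ± 0.32 (SE) without that library. The SE of an edgeR log2 fold change is here its absolute value divided by the square root of the F statistic. The 24 h libraries held 24.7 to 356 CPM of NODAL. Averaged over the 4 day 1 treatments, NODAL differed from them by 0.29 ± 0.17 (SE, log2 scale, edgeR adjusted p = 0.181) in DE(b). In PM it differed by -7.36 ± 0.26 (SE, log2 scale, edgeR adjusted p = 4.86e-12), so the larger average change was in PM. Changes from 24 h after single day 1 treatments were not tested. TDGF1, the Cripto co-receptor, was above its 24 h level in DE(b) and below it in PM (1.00 ± 0.16 SE and -5.13 ± 0.19 SE), with 411 to 814 CPM in DE(b) and 3.37 to 35.5 CPM in PM, a log2 fold change of 6.12 ± 0.32 (SE), edgeR adjusted p = 3.98e-09, and 6.34 ± 0.23 (SE) without the library. GDF3, a ligand of the same receptors, did not overlap either, with 7.07 to 13.2 against 0 to 1.55 CPM (edgeR adjusted p = 4.3e-06). Of 10 ligands and antagonists tested, 6 were higher in DE(b) and 1, the activin subunit INHBA, was higher in PM, where it reached 3.8 CPM. INHBA was not higher in PM after every day 1 treatment, and it was not called without replicate 2 (-4.53, edgeR adjusted p = 0.0733). The median difference of log2(CPM + 1) over the 10 was 4.51, against -0.05 over all genes tested.

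Genes that read the signal moved by less. Of 8 receptors and effectors tested, 5 were higher in DE(b) and 1 in PM, with a median difference of 0.55. SMAD3, the effector that binds DNA itself, stood at 55.6 to 82.2 CPM (median 69) in DE(b) and at 16.7 to 25.8 CPM (median 17.9) in PM, a log2 fold change of 1.91 ± 0.11 (SE), edgeR adjusted p = 1.48e-08. Averaged over the 4 day 1 treatments, SMAD3 differed from 24 h by -1.76 ± 0.09 (SE, log2 scale, edgeR adjusted p = 2.15e-10) in PM. In DE(b) it differed by 0.15 ± 0.09 (SE, log2 scale, edgeR adjusted p = 0.158). SMAD2 differed by 0.88 ± 0.10 (SE), edgeR adjusted p = 7.33e-06, and ACVR1B, the type I receptor, by 0.59 ± 0.09 (SE), edgeR adjusted p = 0.000117. ACVR1C, which encodes the related receptor ALK7, went the other way at a low level, with 0.698 to 1.72 CPM in DE(b) and 4.04 to 7.81 CPM in PM (log2 fold change -2.22 ± 0.22 SE, edgeR adjusted p = 1.61e-06). For SMAD4 the values overlapped, 104 to 123 and 105 to 127 CPM, and it was not called (edgeR adjusted p = 0.196).

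All 9 Nodal target genes of the list were called, each higher in DE(b), after each day 1 treatment and without overlap of the libraries, with a median difference of 5.04. Of all genes tested, 5.45% lay apart in this direction. PMEPA1, which encodes an inhibitor of SMAD2 and SMAD3, had 64.1 to 146 CPM in DE(b) and 0.572 to 7.77 CPM in PM (log2 fold change 5.59 ± 0.28 SE, edgeR adjusted p = 2.87e-09). SKIL, a corepressor that binds SMAD proteins, had 109.5 to 149 against 14.2 to 37.4 CPM (log2 fold change 2.50 ± 0.14 SE, edgeR adjusted p = 5.81e-09). SMAD7, an inhibitory SMAD, ranged over 29.1 to 78.2 against 2.69 to 8.61 CPM (log2 fold change 3.18 ± 0.31 SE, edgeR adjusted p = 1.49e-06), and SMAD7 and SKIL were both below their 24 h level in PM. The size of 5 of the 9 differences depended on the day 1 treatment in the interaction test, but not their sign.

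Among 16 endoderm transcription factors tested, 15 were called, each higher in DE(b) and with that sign after all 4 day 1 treatments, at a median difference of 4.03. SOX7 was the one not called (edgeR adjusted p = 0.0537), with a level under 3 CPM in all 16 libraries. GATA6 was even across the day 1 treatments, with 465 to 791 CPM (median 596) in DE(b) and 6.27 to 17.6 CPM (median 14.3) in PM, and a log2 fold change between 5.14 and 6.20 after the single day 1 treatments (log2 fold change 5.55 ± 0.21 SE, edgeR adjusted p = 2.32e-10 over all). EOMES, a T-box factor at the head of mesendoderm formation, had 368 to 606 CPM in DE(b), and in PM 0.389 to 24.4 CPM with a median of 1.42. Its log2 fold change was 7.43 ± 0.73 (SE), edgeR adjusted p = 1.71e-06, and 8.20 ± 0.49 (SE) without the library that stood apart. LHX1, a LIM homeobox gene of the anterior streak, is listed under 2 identifiers, and its reads may be split between them. The first, which carries most reads, held 235 to 598 CPM in DE(b) and 0 to 4.04 CPM in PM, and the second, at chr17:36936785-36944612 in GRCh38, held 32.9 to 86.7 and 0 to 0.555 CPM.

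SOX17 and FOXA2, the usual markers of definitive endoderm, were higher in DE(b) but less even. SOX17 reached 385 ± 77.2 CPM after DE(a), 459.5 ± 82.2 after APS and 472 ± 114 after MPS, and 168 ± 78.3 after PPS (SD, n = 2). In PM all 4 libraries of MPS and PPS were at 0, and the log2 fold change was 7.84 ± 1.19 (SE), edgeR adjusted p = 9.75e-05, and 8.91 ± 0.71 (SE) without DE(a)-PM replicate 1. FOXA2 fell stepwise across the day 1 treatments in DE(b), with 106 ± 27.5, 66 ± 18.5, 27.5 ± 14.6 and 6.58 ± 6.25 CPM after DE(a), APS, MPS and PPS (SD, n = 2). The media overlapped for FOXA2, since DE(a)-PM replicate 1 held 33 CPM, more than the PPS-DE(b) libraries. Its log2 fold change was 5.09 ± 0.80 (SE), edgeR adjusted p = 0.00013, and 6.19 ± 0.55 (SE) without that library. After DE(a) alone the FOXA2 difference was not called (edgeR adjusted p = 0.0826). HHEX, a homeobox gene of anterior endoderm, showed the same order, from 73.3 ± 15.3 CPM for DE(a) cells to 8.87 ± 3.72 CPM after PPS, and did not exceed 0.393 CPM in any PM library. HNF4A, a nuclear receptor of liver and gut, and OTX2, a homeobox gene of the anterior embryo, were also apart in all 16 libraries, with 1.92 to 49.9 against 0 to 0.478 CPM and 71.1 to 344 against 0.19 to 21.4 CPM. MIXL1, a homeobox gene of the PS, was apart by less, at 2.04 ± 0.36 (SE), edgeR adjusted p = 0.000342, with 559 to 1241 CPM in DE(b) and 75.9 to 379 CPM in PM.

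The other genes named on the DE(b) side have no common role. ERBB4, a receptor for neuregulins, rose from at most 2.52 CPM at 24 h to 156 to 783 CPM (median 293) in DE(b) and had at most 0.842 CPM in PM (edgeR adjusted p = 6.84e-10). In that gene the highest level came after MPS, 667 ± 165 CPM (SD, n = 2). CCKBR, the gastrin and cholecystokinin receptor, had 53.4 to 246 CPM in DE(b), and in PM 15.6 CPM in the library that stood apart and at most 2.08 CPM in the other 7. The log2 fold change of CCKBR was 6.97 ± 0.65 (SE), edgeR adjusted p = 1.02e-06, and 7.96 ± 0.40 (SE) without that library. MYCT1 had 32.2 to 119 against at most 0.112 CPM. TMOD1, which caps actin filaments, and NTN4, a secreted netrin, completed the set at 42.4 to 110.1 and 44 to 78 CPM in DE(b), with at most 1.59 and 1.46 CPM in PM.

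On the PM side the presomitic genes were apart after every day 1 treatment. Of 11 presomitic factors tested 10 were called, each higher in PM and with that sign after all 4 day 1 treatments. Of the 11, 8 did not overlap between the media, against 6.90% of all genes tested. The median difference was -4.08. TBX6, the T-box factor of presomitic mesoderm, was even in PM with 146 to 195 CPM (median 166), and had 1.92 to 52.9 CPM (median 6.92) in DE(b). The spread in DE(b) followed day 1, from 2.1 ± 0.249 CPM for DE(a) cells to 51 ± 2.54 CPM after PPS (SD, n = 2). Its log2 fold change was -4.20 ± 0.48 (SE), edgeR adjusted p = 7.81e-06, between -6.17 after DE(a) and -1.82 after PPS (interaction by edgeR, adjusted p = 2.32e-06). MSGN1, a bHLH factor of the same cells, had 49.7 to 96.8 CPM in PM, and in DE(b) was at 0 after DE(a) and APS and at 12.3 ± 2.27 CPM after PPS. HES7, the oscillating repressor of the segmentation clock, ranged over 45.8 to 137 CPM in PM and 0 to 4.26 CPM in DE(b) (edgeR adjusted p = 3.41e-08). TBXT, the Brachyury gene of PS and tail bud, had 133 to 557 CPM (median 343) in PM and 11.1 to 108 CPM (median 21.7) in DE(b) (log2 fold change -3.42 ± 0.32 SE, edgeR adjusted p = 1.01e-06). It was below its 24 h level of 259 to 1152 CPM in both media, and fell further in DE(b). CDX2, a homeobox gene that acts upstream of posterior HOX genes, had 166 to 243 CPM in PM, and its DE(b) level stayed below 1 CPM on average after DE(a), APS and MPS and reached 13.7 ± 5.22 CPM after PPS.

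The other genes named on the PM side included receptors, secreted enzymes and matrix genes. EDAR, the ectodysplasin receptor, had 26 to 197 CPM (median 97.1) in PM and at most 0.667 CPM in DE(b) (edgeR adjusted p = 1.15e-08). GBX2, a homeobox gene, had 27.3 to 82.5 CPM (median 52.5) in PM and 0 to 0.852 CPM in DE(b) (log2 fold change -6.83 ± 0.41 SE, edgeR adjusted p = 1.43e-08). CITED1, a transcriptional coactivator, stood at 12.6 to 99.2 CPM (median 59.3) in PM and 0 to 0.407 CPM in DE(b) (log2 fold change -7.79 ± 0.38 SE, edgeR adjusted p = 1.95e-09). Absence of overlap between the media was a condition for naming these genes. TLL2, a tolloid-like protease, and PCSK1, a prohormone convertase, had 13.5 to 83.2 and 56.1 to 172 CPM in PM, against at most 0.988 and 3.18 CPM in DE(b). NID2, a basement membrane protein, had 64.5 to 489.9 against 1.8 to 20.2 CPM (log2 fold change -5.13 ± 0.30 SE, edgeR adjusted p = 1.37e-08). TTC29, TMEM132C and CCDC85A had 32.4 to 118, 103 to 339 and 19.2 to 76.1 CPM in PM and at most 1.59, 4.87 and 1.33 CPM in DE(b).

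HOX genes of paralog groups 1 to 4 pattern the hindbrain and the anterior body axis, and all 11 of the list that were tested were called, each higher in PM after all 4 day 1 treatments, at a median difference of -3.58. HOXB1 ranked first on the PM side by the smallest of the 4 differences, with 108 to 247 CPM (median 201) in PM and 0 to 2.17 CPM (median 0.0814) in DE(b) (difference of mean log2(CPM + 1) -7.07, edgeR adjusted p = 3.7e-08). HOXB3 was graded by day 1 in PM, from 105 ± 74.2 CPM for DE(a) cells to 421 ± 95.9 CPM after PPS (SD, n = 2), and in DE(b) from 0.338 ± 0.149 to 76.7 ± 6.42 CPM. Of 18 genes of groups 5 to 13 tested, 11 were called, each higher in PM, with a median of -0.89. Of the 11, 8 had this sign after all 4 day 1 treatments, and none of the 18 was apart in all 16 libraries. The number called higher in PM was 7 without the libraries of APS or of MPS, and 5 and 2 without replicate 1 and without replicate 2. HOXB9 followed day 1 in both media. Its PM level was 14.9 ± 16.7 CPM after DE(a) and 509 ± 36.3 after PPS, and its DE(b) level 0 in both libraries after DE(a) and 133 ± 22.8 CPM after PPS, so that PPS-DE(b) lay above DE(a)-PM.

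**Figure D3:**
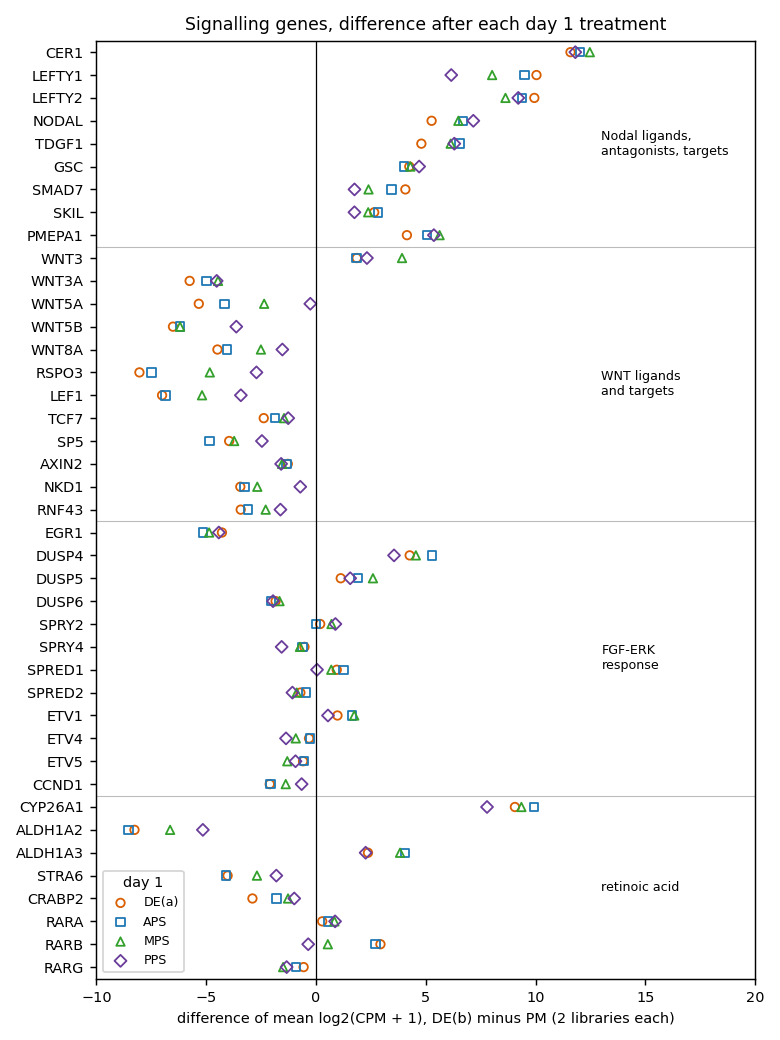
Difference of mean log2(CPM + 1), DE(b) minus PM, after each day 1 treatment (symbols, 2 libraries of each medium) for genes of 4 signalling pathways, with values right of 0 higher in DE(b). The Nodal genes lie right of 0 after all 4 treatments, the WNT genes other than WNT3 lie left of 0, and the FGF-ERK and retinoic acid genes divide.

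WNT ligands and target genes were mostly higher in PM. Of 13 target genes tested, 10 were called, each higher in PM, with a median of -1.75. AXIN2, a feedback inhibitor switched on by WNT in most tissues, had 136 to 345 CPM (median 194) in PM and 52.6 to 108 CPM (median 86.4) in DE(b). Its difference varied little with day 1, from -1.34 to -1.57, and was -1.45 ± 0.17 (SE), edgeR adjusted p = 8.87e-06 over all. Both media were called below the 24 h libraries, which held 135 to 795 CPM. LEF1, a nuclear partner of beta-catenin, differed far more, with 249.6 to 454 CPM in PM and 1.1 to 41.8 CPM in DE(b) (log2 fold change -5.77 ± 0.56 SE, edgeR adjusted p = 1.36e-06), and its DE(b) level rose with day 1 from 1.3 ± 0.27 CPM for DE(a) cells to 36.5 ± 7.58 CPM after PPS. SP5 and RNF43, a repressor and a ubiquitin ligase that both limit WNT output, differed by -3.80 ± 0.30 (SE), edgeR adjusted p = 1.93e-07 and by -2.86 ± 0.32 (SE), edgeR adjusted p = 5e-06. DKK4 was not called (edgeR adjusted p = 0.0747, and 0.0122 with the replicate number as a second block). Its PM libraries had 0.273 to 2.53 CPM in replicate 1 and 29.3 to 73.7 CPM in replicate 2, and its DE(b) libraries 30.4 to 173 CPM.

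Of 9 WNT and RSPO ligands tested 6 (66.7%) were higher in PM and 2 (22.2%) in DE(b), with a median of -3.03. Over all genes tested the shares were 20.8% and 21.2%, so the DE(b) count was near that share. Without DE(a)-PM replicate 1 the count for DE(b) was 1. WNT3A had 29.2 to 96.7 CPM (median 59.7) in PM and 0.349 to 1.97 CPM (median 0.596) in DE(b) (log2 fold change -5.97 ± 0.27 SE, edgeR adjusted p = 1.14e-09). RSPO3, which strengthens WNT signals at the receptor, had 313 to 577 CPM in PM and 0.197 to 89.2 CPM in DE(b) (log2 fold change -5.91 ± 0.83 SE, edgeR adjusted p = 5.03e-05). The receptor FZD10 followed the same course, 108 to 341 against 0.0985 to 19.8 CPM. WNT3 went the other way. It stood at 47.7 to 58.2 CPM (median 49.6) in DE(b) and at 0 to 22.9 CPM (median 9.9) in PM (log2 fold change 2.38 ± 0.45 SE, edgeR adjusted p = 0.000682), and its symbol has 2 identifiers between which reads may be split. WNT3 was not called without replicate 2 (2.63). Secreted WNT inhibitors were divided, 5 of 12 tested (41.7%) being higher in DE(b) and 4 (33.3%) in PM. Of these, 3 and 2 had the same sign after all 4 day 1 treatments. DKK1, an antagonist of the LRP co-receptors, was on the PM side with 233 to 687 CPM (median 536) against 7.8 to 60.5 CPM (median 20.9) (log2 fold change -4.40 ± 0.43 SE, edgeR adjusted p = 1.51e-06), and SHISA2 on the DE(b) side with 27.8 to 84 against 0.189 to 1.19 CPM (log2 fold change 6.28 ± 0.27 SE, edgeR adjusted p = 6.84e-10).

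PM medium held bFGF and DE(b) medium did not, and the genes that follow FGF and ERK signals were divided. Of 15 tested, 9 (60%) were higher in PM and 5 (33.3%) in DE(b), against 20.8% and 21.2% of all genes tested. EGR1, an immediate early factor downstream of ERK, had 27.7 to 239.8 CPM (median 115) in PM and 0.993 to 8.66 CPM (median 1.71) in DE(b) (log2 fold change -5.32 ± 0.55 SE, edgeR adjusted p = 2.82e-06). In PM it was 27.7 to 111 CPM in the libraries of replicate 1 and 119 to 239.8 CPM in those of replicate 2. DUSP6, a phosphatase that switches off ERK, was even within each medium, with 145 to 265 CPM (median 189.9) in PM and 37.7 to 72.7 CPM (median 49) in DE(b), and a log2 fold change of -1.85 ± 0.10 (SE), edgeR adjusted p = 9.41e-09. The phosphatase DUSP4, in contrast, stood at 101 to 619 CPM (median 356) in DE(b) and at 7.53 to 19.1 CPM (median 13.6) in PM (log2 fold change 4.57 ± 0.22 SE, edgeR adjusted p = 1.85e-09), and DUSP5 also was higher in DE(b) (log2 fold change 1.87 ± 0.19 SE, edgeR adjusted p = 2.08e-06). The ETS factors split in the same way, with ETV4 and ETV5 higher in PM (-0.66 ± 0.15 and -0.82 ± 0.15, SE) and ETV1 in DE(b) (1.32 ± 0.15). ETV4 was not called without replicate 1 (-0.45) or without MPS and PPS (-0.23), and ETV5 was not called without replicate 2 (-0.50). SPRY4 was higher in PM (log2 fold change -0.85 ± 0.19 SE, edgeR adjusted p = 0.00255) and SPRY2 in DE(b) (log2 fold change 0.50 ± 0.13 SE, edgeR adjusted p = 0.00684), though SPRY2 was not called without the libraries of MPS or of PPS (0.42 and 0.35). SPRY4 was not called without replicate 2 (-0.43) or without MPS and PPS (-0.54). Of 10 FGF ligands tested, 6 were called, each higher in PM, among them FGF9 with 1.83 to 32.2 against 0.221 to 6.78 CPM and FGF3 with 0.393 to 19.9 against 0 to 0.242 CPM.

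Retinoic acid genes were found on both sides. CYP26A1, which breaks retinoic acid down, had 256 to 1093 CPM (median 742) in DE(b) and at most 0.94 CPM in PM (difference of mean log2(CPM + 1) 9.03, edgeR adjusted p = 3.09e-09). ALDH1A2, which makes it, had 41.7 to 508 CPM (median 235) in PM and at most 1.45 CPM in DE(b) (difference -7.16, edgeR adjusted p = 2.89e-08). The PM level of ALDH1A2 was lowest after PPS, 48.4 ± 9.5 CPM against 411 ± 119 CPM after APS (SD, n = 2). STRA6, the receptor that takes up retinol, was on the PM side, with a log2 fold change of -3.22 ± 0.36 (SE), edgeR adjusted p = 6.03e-06. A second synthesis enzyme, ALDH1A3, was on the DE(b) side at 4.58 to 46.8 against 0.143 to 9.6 CPM (log2 fold change 3.91 ± 0.40 SE, edgeR adjusted p = 2.38e-06). The receptors RARA and RARG were called in opposite directions, by 0.72 ± 0.10 and -1.04 ± 0.11 (SE). Of 12 genes tested 5 (41.7%) were higher in DE(b) and 5 (41.7%) in PM, with a median of -0.05. Over all genes tested the shares were 21.2% and 20.8%.

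Of 16 Notch and segmentation genes tested, 8 (50%) were higher in PM and 4 (25%) in DE(b), with a median of -0.60. Over all genes tested the shares were 20.8% and 21.2%, so the DE(b) count was near that share. Called with the same sign after all 4 day 1 treatments were 7 and 2 genes of the list. The receptor NOTCH1 had nearly the same log2 fold change each time, -1.58, -1.53, -1.62 and -1.58 after DE(a), APS, MPS and PPS, with 287 to 611 CPM (median 468) in PM and 104 to 178 CPM (median 147) in DE(b) (log2 fold change -1.58 ± 0.11 SE, edgeR adjusted p = 5.3e-08). Its ligands DLL1 and DLL3 and the glycosyltransferase LFNG were on the same side. DLL3 had 538 to 1123 CPM in PM, and in DE(b) 6.23 ± 2.21 CPM after DE(a) and 361 ± 28.9 CPM after PPS. DLL1 and LFNG differed by -5.95 ± 0.65 (SE), edgeR adjusted p = 4.68e-06, and by -4.23 ± 0.27 (SE), edgeR adjusted p = 2.98e-08. HES1 was among the 4 higher in DE(b), at 4.88 to 15.8 against 0.714 to 9.91 CPM (log2 fold change 1.48 ± 0.50 SE, edgeR adjusted p = 0.0267), but it was not called without the libraries of MPS (1.37, edgeR adjusted p = 0.114) or of PPS (0.91, edgeR adjusted p = 0.136). RIPPLY1, a repressor of presomitic genes at the somite boundary, was at 0 in all 8 PM libraries and at 0.291 to 3.61 CPM in DE(b), at least 67.5-fold higher on average when the PM libraries are set to 3 counts over the group. Of 9 somite genes tested 5 were higher in PM and 1 in DE(b), 3 and 1 of them with the same sign after all 4 day 1 treatments. Among the 5 was FOXC1 with 99.4 to 335 against 8.12 to 78.5 CPM (log2 fold change -3.69 ± 0.56 SE, edgeR adjusted p = 0.000105). FOXC1 was not called without replicate 2 (-3.69). The number of somite genes called higher in PM was 3 without the libraries of DE(a) or of APS, and lower still without either replicate.

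BMP receptors were inhibited in both media. Of 10 BMP target genes tested 5 (50%) were higher in PM and 1 (10%) in DE(b), with a median of -0.66. Over all genes tested the shares were 20.8% and 21.2%. Called with the same sign after all 4 day 1 treatments were 4 and 1 genes of the list. ID3 had 43.6 to 182 CPM (median 102) in PM and 11.4 to 48.2 CPM (median 26.3) in DE(b) (log2 fold change -2.05 ± 0.34 SE, edgeR adjusted p = 0.000212). The gene higher in DE(b) was SMAD6, the inhibitory SMAD of this branch, with 52.9 to 89.3 against 12.3 to 26.3 CPM (log2 fold change 1.98 ± 0.14 SE, edgeR adjusted p = 5.5e-08). MSX1 was even in PM, 93.7 to 129.6 CPM, and rose with day 1 in DE(b) from 0.719 ± 0.0302 CPM for DE(a) cells to 73 ± 5.21 CPM after PPS (SD, n = 2). Its log2 fold change was -2.82 ± 0.71 (SE), edgeR adjusted p = 0.00521, and without the 4 libraries of APS it was -2.33 and not called (edgeR adjusted p = 0.0659). MSX1 was also not called without replicate 1 (-2.70) or without replicate 2 (-2.95).

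**Figure D4:**
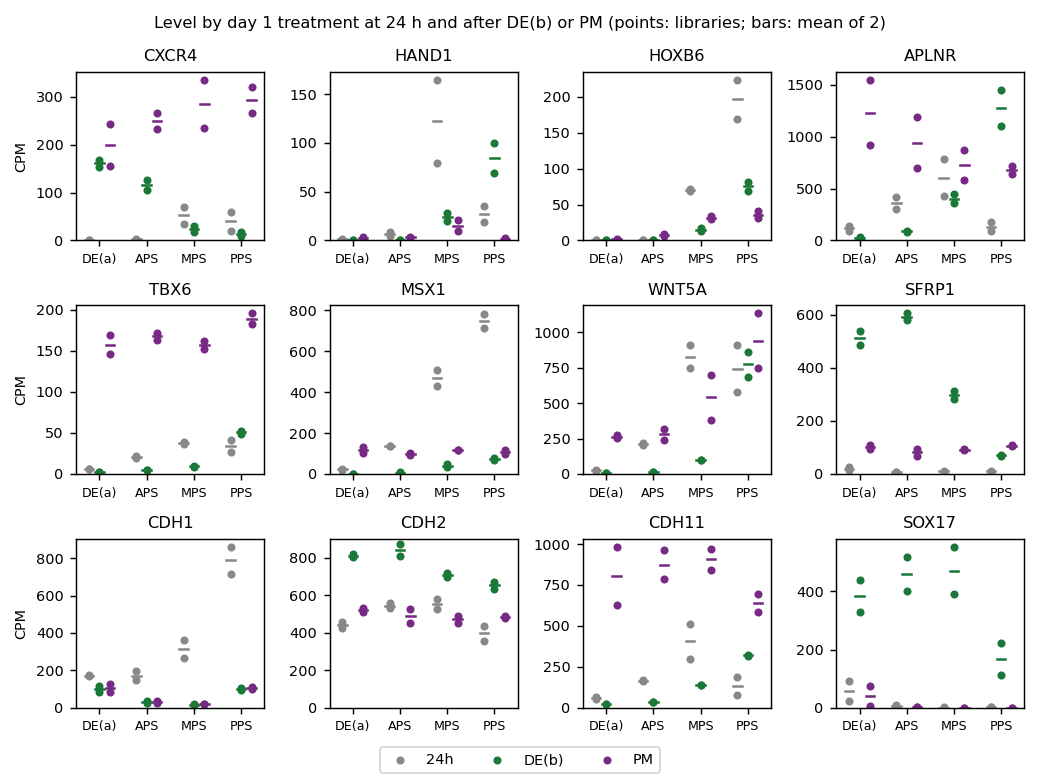
Level in CPM of 12 genes by day 1 treatment (horizontal axis) at 24 h (grey), after DE(b) (green) and after PM (purple), where points are libraries and bars the mean of 2. CDH1 overlaps between the media after each day 1 treatment, SOX17 and CDH2 are higher in DE(b), TBX6 and CDH11 higher in PM, and for HAND1, HOXB6 and APLNR the order of the media turns with day 1.

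The cadherins did not follow the media in the same way. CDH1, which encodes E-cadherin, had 13.3 to 116 CPM (median 58.3) in DE(b) and 17.3 to 128 CPM (median 58) in PM, a log2 fold change of -0.02 ± 0.13 (SE) (edgeR adjusted p = 0.91), and between -0.11 and 0.03 after the single day 1 treatments. Its level followed day 1 in both media. After DE(a) it was 99.5 ± 22.8 CPM in DE(b) and 104 ± 32.8 CPM in PM, after MPS 16.2 ± 4.11 and 18.1 ± 1.11, and after PPS 99.8 ± 7.08 and 105 ± 7.7 CPM (SD, n = 2). CDH2, which encodes N-cadherin, was higher in DE(b) after each day 1 treatment, with 633 to 873 CPM (median 758) against 449.6 to 529 CPM (median 487) (log2 fold change 0.67 ± 0.06 SE, edgeR adjusted p = 5.37e-07). CDH11, a mesenchymal cadherin, was higher in PM with 587 to 983 CPM (median 813) against 21.5 to 323 CPM (median 85.9) (log2 fold change -3.36 ± 0.52 SE, edgeR adjusted p = 0.000106), and the gap narrowed from -5.09 after DE(a) to -0.94 after PPS.

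Of 12 mesenchymal genes tested, 9 (75%) were higher in PM and 2 (16.7%) in DE(b), with a median of -1.21. Of these, 7 and 1 had the same sign after all 4 day 1 treatments. The 2 higher in DE(b) were CDH2 and the fibronectin gene FN1. FN1 was not called without the libraries of MPS or of PPS (log2 fold change 0.56 ± 0.21 SE with all, 0.60 and 0.24 without). Nor was it called without replicate 1 (0.91) or without replicate 2 (0.26). SNAI1, a repressor of E-cadherin, had 58 to 97.5 CPM (median 73.1) in PM and 14.7 to 49.9 CPM (median 23.9) in DE(b) (log2 fold change -1.49 ± 0.15 SE, edgeR adjusted p = 2.31e-06), although CDH1 was not called. SNAI2 and ZEB2, repressors of the same kind, had 45.8 to 67.3 and 79.3 to 131 CPM in PM, against 0.116 to 28.8 and 1.23 to 47.6 CPM in DE(b). Of 14 epithelial genes tested 7 (50%) were called, each higher in DE(b), with a median of 0.29, against 21.2% of all genes tested. In KRT8 and ESRP2 the highest PM value was again that of DE(a)-PM replicate 1. KRT8, a keratin of simple epithelia, had 1124 to 1600 CPM (median 1316) in DE(b) and 515 to 989 CPM (median 555) in PM (log2 fold change 1.15 ± 0.12 SE, edgeR adjusted p = 2.49e-06, and 1.26 ± 0.08 (SE) without that library). The splicing regulator ESRP2 had 9.09 to 65.7 against 3.84 to 15.4 CPM (log2 fold change 1.91 ± 0.20 SE, edgeR adjusted p = 2.78e-06, and 1.95 ± 0.22 (SE) without it). Ephrins and their receptors were divided, with 8 of 17 tested (47.1%) higher in DE(b) and 7 (41.2%) in PM. Over all genes tested the shares were 21.2% and 20.8%. EPHB3 was the furthest apart of the 17, with 50.0 to 93.5 CPM (median 78.2) in DE(b) against 0.725 to 27.5 CPM (median 2.96) in PM (log2 fold change 4.06 ± 0.55 SE, edgeR adjusted p = 3.52e-05, and 4.48 ± 0.45 (SE) without DE(a)-PM replicate 1), and EFNB1, a ligand of EPHB receptors, was on the PM side with 21 to 55 against 7.4 to 17.4 CPM (log2 fold change -1.58 ± 0.23 SE, edgeR adjusted p = 5.58e-05).

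Of 9 pluripotency genes tested, 7 were called, each higher in DE(b), with a median of 0.98. NANOG had 7.68 to 104 CPM (median 18.5) in DE(b) and 0.144 to 3.92 CPM (median 0.543) in PM (log2 fold change 4.93 ± 0.40 SE, edgeR adjusted p = 2.41e-07). Its DE(b) level was graded by day 1, 95.4 ± 11.7 CPM after DE(a) and 9.45 ± 1.1 CPM after PPS (SD, n = 2), while the log2 fold change was between 4.67 and 5.28. POU5F1, which encodes OCT4, is listed under 4 identifiers, and the one with the most reads differed by 0.35 ± 0.11 (SE), edgeR adjusted p = 0.0168, and 0.37 ± 0.12 (SE) without DE(a)-PM replicate 1. It was not called without the libraries of DE(a) or of APS (0.25 and 0.31). Glycolysis and hypoxia genes were called for 12 of 25 tested, 9 (36%) higher in DE(b) and 3 (12%) in PM, where 21.2% and 20.8% of all genes tested were, and 5 and 1 were called with the same sign after all 4 day 1 treatments. PKM, the pyruvate kinase gene, had 1565 to 3779 CPM (median 2684) in DE(b) and 1189 to 2010 CPM (median 1576) in PM (log2 fold change 0.79 ± 0.12 SE, edgeR adjusted p = 0.000103), while the glucose transporter gene SLC2A1 was higher in PM (log2 fold change -1.78 ± 0.42 SE, edgeR adjusted p = 0.0033) and SLC2A3 in DE(b) (log2 fold change 1.22 ± 0.14 SE, edgeR adjusted p = 7.5e-06). Of 19 cholesterol synthesis genes tested 8 (42.1%) were called, each higher in PM, where 20.8% of all genes were called higher in PM and 42.0% in either direction, at a median of -0.30. Without the libraries of APS or of MPS 5 were called. CYP51A1, a sterol demethylase, had 226 to 516 CPM (median 313) in PM and 149 to 188 CPM (median 162) in DE(b) (log2 fold change -1.02 ± 0.12 SE, edgeR adjusted p = 6.87e-06). Of 17 cell cycle genes tested 6 (35.3%) were higher in PM and 1 (5.88%) in DE(b), against 20.8% and 21.2% of all genes tested, at a median of -0.18, and the 1 became 2 without DE(a)-PM replicate 1. The furthest apart of these was CCNE2, a cyclin of entry into S phase, with 7.49 to 12.5 CPM in PM and 2.82 to 5.53 CPM in DE(b) (log2 fold change -1.16 ± 0.14 SE, edgeR adjusted p = 9.73e-06).

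**Figure D5:**
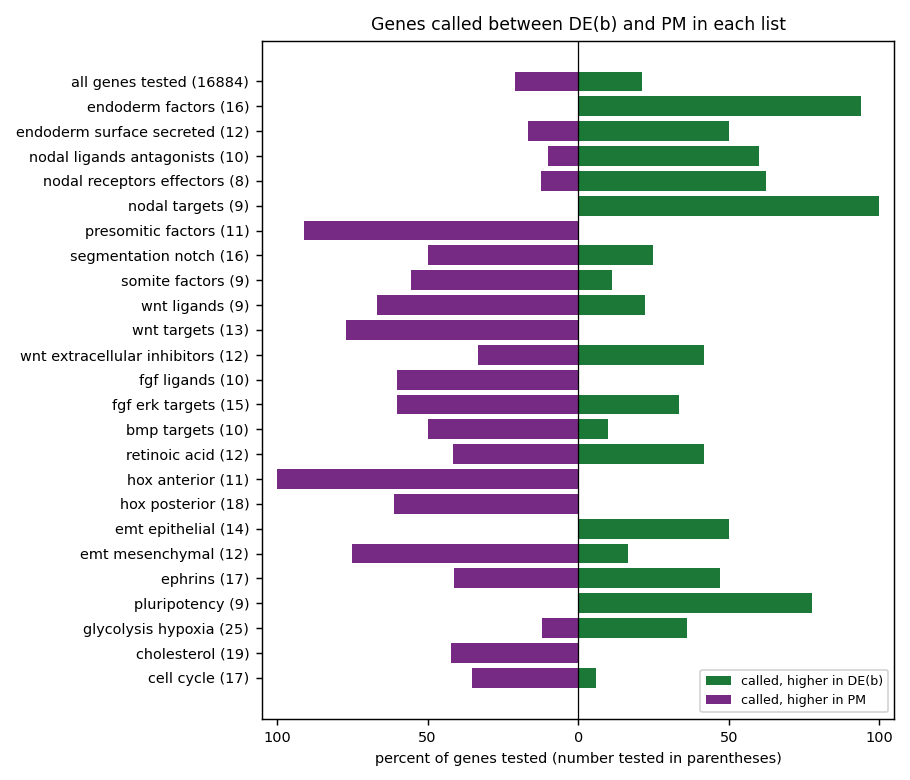
Percent of the genes tested in each list (number in parentheses) that were called higher in DE(b) (green, to the right) or higher in PM (purple, to the left) over all day 1 treatments, with all 16884 genes tested at the top. Nodal targets and endoderm factors point to DE(b), and HOX genes of groups 1 to 4, presomitic factors and WNT targets to PM.

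After the single day 1 treatments, with 2 libraries of each medium, 3569 genes (21.1%) were called for DE(a) cells, 4188 (24.8%) for APS cells, 3698 (21.9%) for MPS cells and 3092 (18.3%) for PPS cells. With the replicate number as a block the counts were 4866, 5515, 5061 and 4848, so that PPS was then close to DE(a). The counts for DE(a) cells include DE(a)-PM replicate 1 and were not made without it. DE(b) was the higher medium for 11.2%, 12.7%, 11.8% and 10.2% of the genes tested, in this order, and PM for 9.90%, 12.2%, 10.1% and 8.12%. Of the genes tested, 1314 (7.78%) were called after all 4, 765 of them (4.53%) each time higher in DE(b), 536 (3.17%) each time higher in PM and 13 (0.0770%) with mixed directions. The test of equal differences after the 4 day 1 treatments called 833 genes (4.93%), and 1945 with the replicate number as a block. For 396 of the 833 the sign was the same after all 4, so these differed in size and not in direction. Of the 833, 99 (0.586% of all genes tested) were called in opposite directions after at least 2 day 1 treatments with at least 10 CPM in a condition.

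The 6 genes of that kind with the widest range of fold changes were GSDMD, HAND1, HOXB6, APLNR, HAPLN1 and LGR5. HAND1, a bHLH factor of lateral mesoderm, was lower in DE(b) than in PM after DE(a) (0.0291 ± 0.0412 against 2.34 ± 1.24 CPM, SD, n = 2) and higher after PPS (84.7 ± 21.7 against 1.72 ± 0.945 CPM). It was not called over all day 1 treatments. APLNR, the apelin receptor, had 28.1 ± 3.49 CPM in DE(b) and 1232 ± 447 CPM in PM after DE(a), a log2 fold change of -5.39 ± 0.35 (SE). After PPS the values were 1274 ± 244 and 682 ± 55 CPM, a log2 fold change of 0.98 ± 0.29. HOXB6 turned in the same way, from 0 in both DE(b) libraries against 7.71 ± 1.49 CPM in PM after APS to 75.1 ± 9.45 against 35.7 ± 7.03 CPM after PPS. LGR5, an R-spondin receptor and WNT target, had 28.5 ± 4.04 against 94.9 ± 21 CPM after APS and 228 ± 18.2 against 16.7 ± 5.16 CPM after PPS. HAPLN1, a link protein of hyaluronan matrix, had 1.64 ± 0.918 against 33.3 ± 8.79 CPM after DE(a) and 749.8 ± 89.4 against 325 ± 118 CPM after PPS. All 5 of these genes were called higher in DE(b) after PPS, HAND1, HOXB6, APLNR and HAPLN1 higher in PM after DE(a), and HAND1, HOXB6, APLNR and LGR5 higher in PM after APS. GSDMD, which encodes a pore-forming protein of cell death, is listed under 2 identifiers, between which its reads may be split. The one named here was at 0 in both libraries of APS-DE(b) and of MPS-PM and did not exceed 14.1 CPM in DE(b) or 11.6 CPM in PM.

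For other genes the gap between the media closed or turned after one of the day 1 treatments. CXCR4, a chemokine receptor used as a surface marker of endoderm, was higher in PM with 156 to 335 CPM (median 254) against 9.25 to 168 CPM (median 67.4) in DE(b) (log2 fold change -2.27 ± 0.54 SE, edgeR adjusted p = 0.00341). At -1.74 it was just not called without the 4 libraries of MPS (edgeR adjusted p = 0.0504). It was also not called without replicate 1 (-2.28) or without replicate 2 (-2.27). After DE(a) the media were close, 161 ± 9.92 CPM in DE(b) and 199.9 ± 62.1 CPM in PM (edgeR adjusted p = 0.632), and after PPS far apart, 13.4 ± 5.84 and 293 ± 39.3 CPM (edgeR adjusted p = 1.1e-05). KIT, a receptor that also marks endoderm, was higher in DE(b) after DE(a), with 180.2 ± 1.39 against 17.7 ± 16.6 CPM, and had 11.6 ± 7.83 and 10.6 ± 5.28 CPM after PPS. Over all day 1 treatments its log2 fold change was 3.48 ± 0.72 (SE), and 3.85 ± 0.81 (SE) without DE(a)-PM replicate 1. SFRP1, a secreted WNT inhibitor, was higher in DE(b) after DE(a), APS and MPS, with 592 ± 17.9 against 82.2 ± 18 CPM after APS, and lower after PPS (70.2 ± 1.17 against 107 ± 3.67 CPM). WNT5A was higher in PM after DE(a), 264 ± 12.8 against 5.69 ± 2.05 CPM, and had 941 ± 271 and 774 ± 122 CPM after PPS. For each of these genes the difference between the media depended on day 1 by edgeR's interaction test (adjusted p = 0.000739 for CXCR4, 0.0177 for KIT, 2.49e-05 for SFRP1 and 0.000208 for WNT5A).

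Sums of markers of other cell types overlapped between the media, apart from those of primordial germ cells. The sum of 7 lateral and cardiac mesoderm markers ranged from 3.1 to 117 CPM in DE(b) and from 2 to 40 CPM in PM, and HAND1 in PPS-DE(b) accounted for most of the highest value. That of 7 amnion markers ranged from 2.03 to 25.1 and from 2.35 to 13.8 CPM, with TFAP2B and VTCN1 under 1 CPM in all 16 libraries. Neural markers, 6 genes, summed to 6.9 to 56.9 CPM in DE(b), mostly SOX2, and 1.48 to 34.3 CPM in PM, with SOX1 and PAX6 under 1 CPM in all 16 libraries. Markers of blood and endothelium summed to 56.3 to 109 CPM in DE(b) and 74.3 to 197 CPM in PM, with TAL1, PECAM1 and GATA1 under 1 CPM in all 16 libraries. Node and notochord markers summed to 35.3 to 163 CPM in DE(b) and 145 to 589 CPM in PM, and NOTO was under 1 CPM throughout, while TBXT, which the presomitic list also holds, made up much of the PM sum. Those of primordial germ cells summed to 153 to 682 CPM in DE(b) and 7.93 to 91.7 CPM in PM. That list holds SOX17, an endoderm marker too, and NANOS3 and DPPA3, its more specific members, were under 1 CPM in all 16 libraries. The part of such cells in the differences above was not tested.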

How the data were processed

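The series measured poly(A) RNA by stranded sequencing in 34 libraries of ESI017 cells, of which the 8 DE(b) and 8 PM libraries of day 2 were compared and the 8 libraries of 24 h used for each medium's own change. The authors quantified transcripts with Salmon 1.10.2 on GRCh38 (hg38) and summed them to genes in R 4.4.2, and they deposited estimated counts that need not be whole, in 2 tables, 1 for each replicate. The annotation release is not given in the sources used here. The deposited estimated counts, 15522780 to 23439799 per library in the 16, were rounded for testing. Salmon shares reads among similar transcripts, so close paralogs, pseudogene copies and genes with several identifiers can take reads from each other. The series calls the 2 replicates biological, but nothing more says that they came from separate cultures, so that p-values measure the spread between these libraries.

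Genes were tested in edgeR 4.0.16 (R 4.3.3) by the quasi-likelihood F test with TMM normalization and filterByExpr, and p-values were Benjamini-Hochberg adjusted over all genes tested and called under 0.05. The main fit held day 1 treatment as a block and day 2 medium. Differences after single day 1 treatments, the interaction and the changes from 24 h (17469 genes tested) used 1 mean per condition. The SE of a log2 fold change was derived from the F test, as the absolute log2 fold change divided by the square root of F. It was not estimated separately. The script was tested on simulated data. Levels and differences of log2(CPM + 1) used library totals without composition scaling. Deviations of replicates 1 and 2 from the condition mean correlated among conditions (28 of 28 pairs over 0.1, Pearson r 0.13 to 0.71 over 10037 genes), so the replicate numbers pair the libraries by table, and the fit with a replicate block is given where it matters.

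Named genes were the 15 in each direction that were called, had the same sign after all 4 day 1 treatments, did not overlap between media and averaged at least 10 CPM in the higher medium, ranked by the smallest of the 4 differences of log2(CPM + 1), and the 6 genes called in opposite directions with the widest range of log2 fold changes. Members of 32 lists (349 symbols, 319 tested) are named besides, and some genes of these groups are not reported here. Members and lists were chosen with earlier results of these data known. Gene names come from an Ensembl table and coordinates from GENCODE release 44. Promoters come from RefSeq. Alternatives tried were RLE normalization, no filter, a replicate block, DESeq2 1.42.0, all 34 libraries in 1 fit, a 2-fold minimum, leaving out each replicate or day 1 treatment and, chosen after seeing the data, leaving out DE(a)-PM replicate 1 or both MPS and PPS.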

Additional observations from a re-analysis of the deposited data

Results flagged for a closer look

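The difference between DE(b) and PM depended on the day 1 treatment for 38 of the identifiers named above by edgeR's interaction test, with the adjusted p given after each gene. With the replicate number as a block 55 were called, 17 more and 0 fewer, among them ID3 (0.000302), STRA6 (0.00465), EFNB1 (0.00482), TMEM132C (0.00551) and SNAI1 (0.00817). Among genes higher in DE(b) these were LHX1 (identifier ending in 577, 0.00721), NODAL (0.0273), SMAD7 (0.00211), SKIL (0.0285), PMEPA1 (0.0013), KIT (0.0177), SFRP1 (2.49e-05) and ETV1 (0.0186). Of presomitic, segmentation and somite genes these were TBX6 (2.32e-06), MSGN1 (5.38e-05), CDX2 (0.000144), HES7 (0.00331), DLL1 (0.0162), DLL3 (0.000518), LFNG (0.0135) and FOXC1 (1.49e-05). Of WNT genes RSPO3 (2.32e-06), LEF1 (0.000131), WNT5A (0.000208), SP5 (0.0316), FZD10 (0.0165) and LGR5 (0.000264) depended on day 1, and of HOX genes HOXB1 (0.018), HOXB3 (0.00635) and HOXB6 (0.000116). The mesenchymal genes CDH11 (5.22e-05), SNAI2 (0.00243) and ZEB2 (0.000109) did so too. The others were MSX1 (2.32e-06), ALDH1A2 (0.0189), RARG (0.0121), PCSK1 (0.0166), SLC2A1 (0.000905), CXCR4 (0.000739), HAND1 (0.000202), APLNR (5.38e-05), HAPLN1 (0.000595) and GSDMD (0.0398).

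Of 183 sets of 8 libraries of 1 medium with at least 10 CPM in the highest, 14 held a library whose gap to the next was a larger part of the range than Dixon's 95% critical value for 8 values. Chance gives about 1 in 20 where the 8 values come from 1 population, while each set here holds 4 day 1 treatments. In 10 of the 14 the library was DE(a)-PM replicate 1, as the highest PM value, and the gap as a part of the range was 0.948 for SOX17, 0.898 for FOXA2, 0.87 for CCKBR, 0.727 for EOMES, 0.607 for KRT8, 0.586 for TDGF1, 0.561 for ESRP2, 0.546 for POU5F1, 0.545 for KIT and 0.539 for EPHB3. The other 4 were WNT3 (0.603) and SPRY2 (0.564) in DE(a)-DE(b) replicate 2, HAND1 (0.563) in MPS-PM replicate 1 and FN1 (0.57) in PPS-PM replicate 1.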

How the results depend on the processing

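Over all day 1 treatments the 7087 called genes became 7106 with RLE normalization, 6628 with no filter, 7710 with DESeq2, 7831 with a replicate block, 7695 with all 34 libraries, 7540 with 1 mean per condition, 5127 to 7131 without 1 day 1 treatment, 7081 without DE(a)-PM replicate 1 (3565 and 3516 higher in DE(b) and PM, 3123 and 3013 of them with 1 direction after every day 1 treatment) and 5377 without MPS and PPS, and 0 genes were called in the opposite direction in any of these (each edgeR apart from the DESeq2 fit, and each sharing 4690 or more genes with the 7087). The 3123 and 3013 genes use directions from the main fit, which still holds DE(a)-PM replicate 1. Leaving out 1 replicate left 3270 to 3570 called, 1755 to 1967 of them higher in DE(b) and 1515 to 1603 in PM, and 1727 to 1939 and 1504 to 1594 with 1 direction after every day 1 treatment, from 8 libraries instead of 16. A 2-fold minimum left 2800 genes (1465 and 1335), and 2114, 2465, 2237 and 1814 after DE(a), APS, MPS and PPS. With the replicate block the count after PPS rose to 4848 and the interaction count to 1945, DKK4 became called, and the block changed no other call on a gene named here over all day 1 treatments. The interaction count was 2256 with no filter and 2101 with DESeq2, and the cause was not tested. Against 24 h, leaving out 1 replicate gave 3648 to 5246 genes for DE(b) and 3617 to 4704 for PM, and a 2-fold minimum 3114 and 3145. Of 114 identifiers named, 95 to 114 kept direction and side of the threshold in each setting, out of 113 without MPS and PPS. Without replicate 1 the call was lost for APLNR, MIXL1, CXCR4, RIPPLY1, WNT5A, SFRP1, SPRY2, ETV4, MSX1, FN1, POU5F1 and SLC2A1. Without replicate 2 it was lost for APLNR, CXCR4, KIT, INHBA, DLL3, HES1, FOXC1, WNT3, WNT5A, SFRP1, SPRY4, ETV5, MSX1, FN1, ZEB2 and SLC2A1. The direction turned only for genes not called in the main comparison. HAND1 was -0.01 with no filter, -1.30 with DESeq2, -0.91 with all 34 libraries and with 1 mean per condition, -0.85 without MPS, -2.01 without PPS, -4.65 without both, -0.18 without replicate 2 and 0.44 without DE(a)-PM replicate 1. HAPLN1 was 0.85 without DE(a) and 0.16 without APS or without replicate 1 (-0.20 without replicate 2), LGR5 -0.31 without PPS and -1.22 without MPS and PPS, and GSDMD 1.13 without APS. CDH1 was 0.00 without MPS, 0.07 without replicate 2 (-0.11 without replicate 1), 0.04 without DE(a)-PM replicate 1 and 0.01 without MPS and PPS. SOX7 became called, lower in DE(b), with no filter (-2.47), DESeq2 (-2.72), all 34 libraries (-2.84), 1 mean per condition (-2.83) and without PPS (-3.34). HOXB6 became called, higher in PM, with DESeq2 (-3.55), all 34 libraries and 1 mean per condition (each -4.42), without PPS (-3.20) and without MPS and PPS (-9.44). LGR5 became called higher in DE(b) with all 34 libraries and 1 mean per condition (each 0.76), but higher in PM without MPS and PPS (-1.22). HAND1 was likewise called higher in PM without MPS and PPS (-4.65). DKK4 was also called with no filter, all 34 libraries and either replicate alone. Of 64 counts of list members in 1 direction, 0 to 12 moved by over 1.5 times in each setting, and 22 and 24 without replicate 1 and without replicate 2. Of the 15 genes named in each direction, 11 and 10 were named again with a pseudocount of 0.1 and 15 and 14 with TMM-scaled totals. Genes near 0 in a medium are limited by depth, since 0 counts allow up to 0.193 CPM.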

Other observations

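Endoderm surface and secreted genes outside the lists of factors gave 6 genes (50%) higher in DE(b) and 2 (16.7%) in PM of 12 tested. Over all genes tested the shares were 21.2% and 20.8%. The median difference of log2(CPM + 1) over the 12 was 0.69.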
